A study of Homo sapiens with 16 samples.

Results

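The genes described here are 42 genes of cell division: cyclin B, CDK1 and the kinases of mitotic entry, the spindle assembly checkpoint, the chromosomal passenger complex, centromere and kinetochore proteins, spindle motors and cytokinesis proteins, anaphase regulators, cohesin, and condensin with topoisomerase II. They were chosen by name for these roles, with earlier results of these data known. Transcript identifiers were mapped to gene symbols, and all 42 genes were found among the 10799 transcripts listed for MDA-LM2 and parental cells and among the 8980 listed for the HNRNPC knockdown. Ribosome profiling, which sequences the stretches of mRNA that translating ribosomes protect, was run together with RNA-seq on human breast cancer cells to ask how translation differs with metastatic capacity and with the level of HNRNPC, a protein that binds U-rich RNA. The 4 lines were compared in pairs: MDA-LM2, a highly metastatic derivative selected for growth in the lung, against its poorly metastatic parental line MDA-MB-231, and MDA-MB-231 carrying a guide against HNRNPC (sgHNRNPC) against MDA-MB-231 carrying a control guide (sgControl). The sgControl and sgHNRNPC cells both held the repressor dCas9-KRAB, had been sorted for its BFP marker and were selected with puromycin, so that the guide was the only labelled difference between them. All cells were grown in DMEM with serum to partial confluence without further treatment. From each line 2 lysates were taken, and each gave a library of ribosome-protected footprints (RPF) and an RNA library, which makes 16 samples. Each condition is a single cell line, so a difference between lines was measured in 1 derivative and with 1 knockdown line. The limma p-values rest on the spread between 2 lysates, drawn towards the spread of other transcripts at similar levels. They do not rest on the 2 lysates of a gene alone.

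Entry into mitosis is driven by cyclin B bound to CDK1. Condensin folds the chromosomes, cohesin holds sister chromatids together, and kinetochores attach the chromatids to the spindle, while the checkpoint proteins hold back CDC20 until every attachment is made. CDC20 then directs the anaphase-promoting complex to securin and cyclin B, separase cuts cohesin, and spindle motors with midzone proteins complete division. Many of these genes are switched on together in G2 by the MuvB complex with MYBL2 or FOXM1, which reads the cell cycle homology region (CHR), a short promoter element, often with CCAAT boxes bound by NF-Y nearby.

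Of the markers of MDA-MB-231, VIM stood at percentile 99.9 of RNA levels in both comparisons. CD44, CAV1 and AXL were at percentile 94.3 or higher. ESR1, PGR, PTPRC, PECAM1, ALB and CDH1 were not listed. SPARC was not listed either, and EPCAM was listed at a low level (percentile 6.91 and 13.3). ERBB2, a receptor expected to be low or absent, was listed. It stood at percentile 80.9 with parental and MDA-LM2 cells and 36.8 with the knockdown. Between 7517953 and 8193031 reads lay behind the RNA values of parental and MDA-LM2 libraries and between 5141959 and 6164753 behind those of the knockdown and its control. How many reads lie behind the RPF values is unknown. In sgHNRNPC replicate 2, 213 transcripts were listed at 0 in RPF, against 28 to 72 in the other knockdown libraries. All values are normalised counts per transcript. Both MDA-LM2 RNA libraries differed from each other along GC content: across transcripts, the log2 difference of replicate 2 and replicate 1 correlated with the GC content of the transcript at r = -0.38 over all matched transcripts and at r = -0.71 over the 42 genes. The RNA change between MDA-LM2 and parental cells also correlated with GC content. Here r was -0.26 over all matched transcripts and -0.50 over the 42 genes. HNRNPC served as the check of the knockdown. Its RNA stood at 2162 and 2146 normalised counts in sgControl and at 1147 and 1183 in sgHNRNPC, a fall of 0.89 on the log2 scale (SE 0.05, limma adjusted p = 2.29e-35).

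Promoters of these genes held the CHR letters more often than those of other listed genes. RefSeq promoter windows (GRCh38.p14, 250 bases before to 50 bases after the start) were at hand for 35 of the 42 genes. The CHR letters TTTGAA or TTCGAA, searched on both strands, lay in the windows of 26 of the 35 genes (74.3%), against 15.7% of 8733 listed genes and 16.4% of all promoter windows. Within 50 bases of the start the share was 57.1% (20 genes) against 5.07% of listed genes. CCAAT, on either strand, was present for 25 genes (71.4%) against 44.3%, and both kinds of letters for 19 (54.3%) against 6.71%. The next lines show such windows for genes whose RNA level changed in one of the comparisons below. Each is printed on the strand of the gene, with the match in capitals.
PRC1, chr15:90994538-90994567, minus strand: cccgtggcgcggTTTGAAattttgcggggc
KIF4A, chrX:70290058-70290087, plus strand: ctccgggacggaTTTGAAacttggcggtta
CDCA8, chr1:37692481-37692510, plus strand: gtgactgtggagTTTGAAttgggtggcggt
CDC20, chr1:43358904-43358933, plus strand: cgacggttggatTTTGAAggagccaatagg
NCAPG, chr4:17810932-17810961, plus strand: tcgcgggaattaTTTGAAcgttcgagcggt
In PRC1, CDCA8, KIF4A and NCAPG the match began 20, 23, 34 and 35 bases before the RefSeq start, and in CDC20 it began 65 bases before it. PRC1 and KIF4A were higher in MDA-LM2 cells and CDC20 and CDCA8 lower, and NCAPG was lower in the knockdown. Of the other 4 genes with a changed RNA level, ECT2 held the letters too, whereas the windows of SMC1A, KIF2C and CENPE held none. The window of CDC20 also holds a CCAAT box downstream of the match. A match is a description of the letters and was not tested as a binding site.

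In MDA-LM2 cells the RNA of 6 of the 42 genes changed, 3 up and 3 down. PRC1, KIF4A and SMC1A rose by 0.51 to 0.66 on the log2 scale, and KIF2C, CDC20 and CDCA8 fell by 0.46 to 0.55. These are bulk lysates, so fewer dividing cells and less RNA per cell cannot be told apart. The share of 14.3% lay below that of all listed transcripts, of which 16.6% were called at a limma adjusted p under 0.05 (714 higher and 1082 lower). The median RNA change of the 42 genes was 0.06, against -0.02 for all, and the median size of the change regardless of sign was 0.15 against 0.25. Values of both MDA-LM2 libraries lay outside both parental values for 20 genes (47.6%), 10 above and 10 below, against 61.8% of all listed transcripts. All 6 calls rest on both parental libraries: without parental replicate 1, and likewise without parental replicate 2, no gene of the 42 passed, although all 6 log2 changes kept their sign; of all 10799 transcripts, 725 and 851 passed in these fits. Without MDA-LM2 replicate 1, 24 of the 42 genes and 5046 of all transcripts passed, and without MDA-LM2 replicate 2 it was 11 and 3368, with the 6 genes among them each time.

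**Figure D1:**
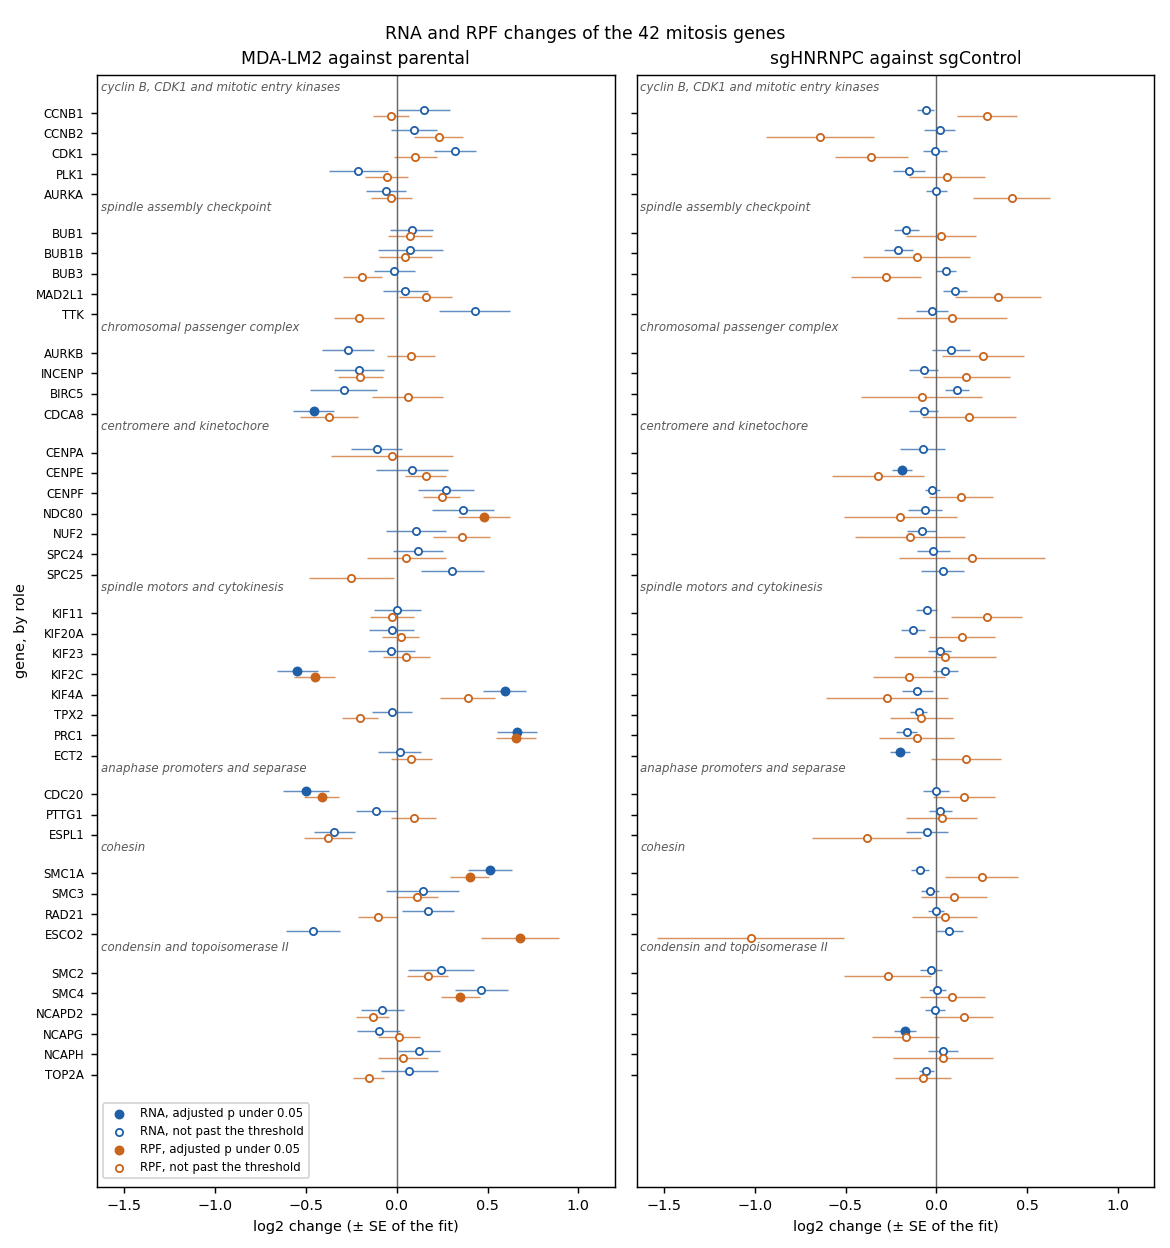
Log2 changes of the 42 genes by role, for MDA-LM2 against parental (left) and sgHNRNPC against sgControl (right). Points are RNA (blue) and RPF (orange) changes with the SE of the limma fit, n = 2 libraries per line, and filled points passed the threshold. Filled points lie on both sides of zero on the left, and the 3 filled points on the right are all RNA and all below zero.

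The spindle motors and cytokinesis proteins held 3 of the 6 changed RNAs among 8 genes. PRC1, which bundles the antiparallel microtubules of the spindle midzone, had 1615 and 1657 normalised RNA counts in parental cells and 2666 and 2516 in MDA-LM2 cells. KIF4A, the chromokinesin that PRC1 brings to the midzone, had 377 and 384 in parental cells and 552 and 599 in MDA-LM2 cells. KIF2C (MCAK), a kinesin that depolymerises microtubules and corrects wrong attachments, went the other way, from 1503 and 1487 to 1065 and 983. In each of the 3 genes the libraries of the lines did not overlap, with MDA-LM2 high for PRC1 and KIF4A and low for KIF2C. The log2 changes were 0.66 for PRC1 (SE 0.11, limma adjusted p = 0.00605), 0.59 for KIF4A (SE 0.12, adjusted p = 0.0123) and -0.55 for KIF2C (SE 0.11, adjusted p = 0.0138). The other 5 genes of the group lay close to zero, between -0.03 for KIF23 and 0.02 for ECT2. They include KIF11, the motor that drives the spindle poles apart, with 549 and 565 against 508 and 613, and TPX2, which activates AURKA on the spindle. PRC1 overlaps exons of the antisense gene PRC1-AS1 over 38.8% of its exon bases, KIF2C overlaps an antisense gene over 4.79% and KIF4A overlaps PDZD11 over 1.76%. Whether strand was used in the counting is not given in the sources used here.

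Among the anaphase regulators, CDC20 fell. CDC20, the activator of the anaphase-promoting complex that the checkpoint restrains, had 3309 and 3416 RNA counts in parental cells and 2580 and 2189 in MDA-LM2 cells, a log2 change of -0.50 (SE 0.13, limma adjusted p = 0.0304). ESPL1 (separase), the protease that opens cohesin, had 1091 and 1056 against 875 and 818, and its change of -0.34 did not pass (adjusted p = 0.0696). The third gene, PTTG1 (securin), which inhibits separase, had 1081 and 1047 against 1013 and 958. Its change of -0.11 did not pass (limma adjusted p = 0.525). MDA-LM2 values were lower than parental values in all 3 genes, without overlap. Of all listed transcripts, 61.8% showed no overlap, in either direction.

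In the chromosomal passenger complex, CDCA8 (borealin), which anchors the complex at centromeres, fell from 1181 and 1285 to 902 and 892 (log2 change -0.46, SE 0.11, limma adjusted p = 0.0282). The kinase AURKB had 859 and 871 in parental cells against 816 and 633, a change of -0.27 (adjusted p = 0.229). INCENP, the scaffold, and BIRC5 (survivin), which reads phosphorylated histone H3, had changes of -0.21 and -0.29 with overlapping libraries. In the latter, MDA-LM2 replicate 1 (1392) lay between the parental values of 1421 and 1349, and MDA-LM2 replicate 2 stood alone at 918. Under equal totals of the RNA libraries, which moved the median change of all listed transcripts from -0.02 to 0.15, the falls of CDC20 and CDCA8 became -0.33 and -0.29 and no longer passed, and they did not pass after quantile normalisation either, whereas PRC1, KIF4A, SMC1A and KIF2C passed under both. CDK1 and SMC4 passed under equal totals, so that 5 of the 42 genes were higher and 1 lower there. Equal totals also turned the split of all RNA calls from 714 higher and 1082 lower to 1398 higher and 674 lower.

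Of the 4 cohesin genes only SMC1A, a core subunit of the ring, passed in RNA, with 1432 and 1559 counts in parental cells and 1998 and 2281 in MDA-LM2 cells (log2 change 0.51, SE 0.12, limma adjusted p = 0.0247). SMC3, its partner in the ring, had 368 and 430 against 353 and 546, and RAD21, the subunit that closes the ring, had 1503 and 1588 against 1536 and 1972. For both, MDA-LM2 replicate 1 lay within or below the parental values and replicate 2 above them. ESCO2, the acetyltransferase that locks cohesin on replicated DNA, had 4323 and 4648 against 3707 and 2860, a change of -0.46 that did not pass (adjusted p = 0.0679); after correction for GC content, its change was -0.57 and passed. None of the 6 condensin and topoisomerase II genes passed in RNA. SMC4, a core condensin subunit, came nearest, with 444 and 373 against 510 and 621 (log2 change 0.47, adjusted p = 0.0639), and it passed with the replicate number as a block, as did ESCO2 and ESPL1. In SMC4, 28.98% of the exon bases lie opposite exons of TRIM59.

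No RNA of the 5 mitotic entry genes, the 5 checkpoint genes or the 7 centromere and kinetochore genes passed the threshold in MDA-LM2 cells. CCNB1, the main mitotic cyclin, had 842 and 882 counts in parental cells against 836 and 1094, and PLK1, a kinase of mitotic entry, had 1531 and 1654 against 1618 and 1169. CDK1 was above the parental values in both libraries, at 511 and 529 against 409 and 423, without passing (log2 change 0.32, limma adjusted p = 0.0925). Among the checkpoint genes, the changes ran from -0.01 for BUB3 to 0.43 for TTK, the kinase that recruits the checkpoint to unattached kinetochores, whose MDA-LM2 libraries stood at 121 and 174 against 104 and 111. NDC80, the microtubule-binding core of the kinetochore, had 141 and 157 against 166 and 221 (change 0.37, adjusted p = 0.184).

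Footprints gave 7 called genes of 42 in MDA-LM2 cells (16.7%), 5 higher and 2 lower, against 12.0% of the 8393 transcripts tested. All 42 genes had a mean of at least 10 in RPF and RNA here, and 40 had it in both comparisons. CENPA, the histone of centromeres, and SPC25 were below it in the knockdown, and neither was among the 7. PRC1 had 221 and 231 normalised RPF counts in parental cells and 327 and 391 in MDA-LM2 cells (log2 change 0.66, SE 0.11, limma adjusted p = 4.23e-05). CDC20 had 428 and 451 against 317 and 343 (change -0.41, adjusted p = 0.00382). KIF2C had 271 and 265 against 207 and 185 (change -0.45, adjusted p = 0.00546). In these 3 genes, as in SMC1A with 234 and 217 against 294 and 302 (change 0.40, adjusted p = 0.00996), footprints moved the way the RNA had moved, and the lines did not overlap. NDC80, whose RNA change of 0.37 did not pass, rose in footprints from 88.4 and 85.2 to 127 and 116 (change 0.48, adjusted p = 0.0213). SMC4 likewise passed in footprints and not in RNA, from 259 and 259 to 299 and 366 (change 0.35, adjusted p = 0.0291). KIF4A and CDCA8, changed in RNA, had RPF changes of 0.39 (adjusted p = 0.0891) and -0.37 (adjusted p = 0.137). Footprints of both MDA-LM2 libraries lay outside the parental ones for 20 genes, 11 above and 9 below, against 53.3% of transcripts tested. PRC1 and CDC20 passed without each library in turn, and CDC20 did not pass after quantile normalisation (-0.29). KIF2C was lost without MDA-LM2 replicate 2 (-0.37), and SMC1A without parental replicate 2 (0.35) or MDA-LM2 replicate 2 (0.38). NDC80 was lost without parental replicate 1 (0.51), parental replicate 2 (0.46) or MDA-LM2 replicate 1 (0.42). SMC4 was lost without parental replicate 1 (0.35), parental replicate 2 (0.35) or MDA-LM2 replicate 2 (0.21).

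ESCO2 was the gene whose RNA and footprints parted most. Its footprints rose from 31.1 and 36.7 normalised counts in parental cells to 47.2 and 63.3 in MDA-LM2 cells (log2 change 0.68, SE 0.21, limma adjusted p = 0.0326), while its RNA stood lower. Both MDA-LM2 libraries were above both parental libraries in RPF and below them in RNA. The RPF call was lost without parental replicate 1 (0.56) or MDA-LM2 replicate 2 (0.47). Translational efficiency (TE) is the ratio of RPF to RNA, and the TE change of ESCO2, the RPF change minus the RNA change, was 1.14 on the log2 scale (SE 0.23, unadjusted p = 0.000283, limma adjusted p = 0.291). No gene of the 42 passed in TE by limma, where 0.0357% of transcripts (3 of 8393) did, and 2 of the 42 (4.76%) had an unadjusted p under 0.05, against 455 of all (5.42%). The second was TTK, at -0.64 (adjusted p = 0.89), with RPF of 116 and 122 against 108 and 98.1. SPC25, a kinetochore subunit of the NDC80 complex, followed at -0.56 (adjusted p = 0.907). Logistic regression, the kind of test the study used, which treats normalised counts as reads and leaves out the spread between lysates, called 3 of the 42 genes (7.14%) against 2.16% of transcripts: ESCO2 higher (adjusted p = 5.9e-05), TTK lower (adjusted p = 0.0261) and TOP2A, the topoisomerase that untangles sister DNA, lower by 0.23 on the log2 scale (adjusted p = 0.00662). Without MDA-LM2 replicate 1, limma also called ESCO2 in TE (1.53). Across the 42 genes the RNA and RPF changes correlated at r = 0.54, against 0.77 across all 8393 transcripts. This is a description across genes, which share their libraries.

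**Figure D2:**
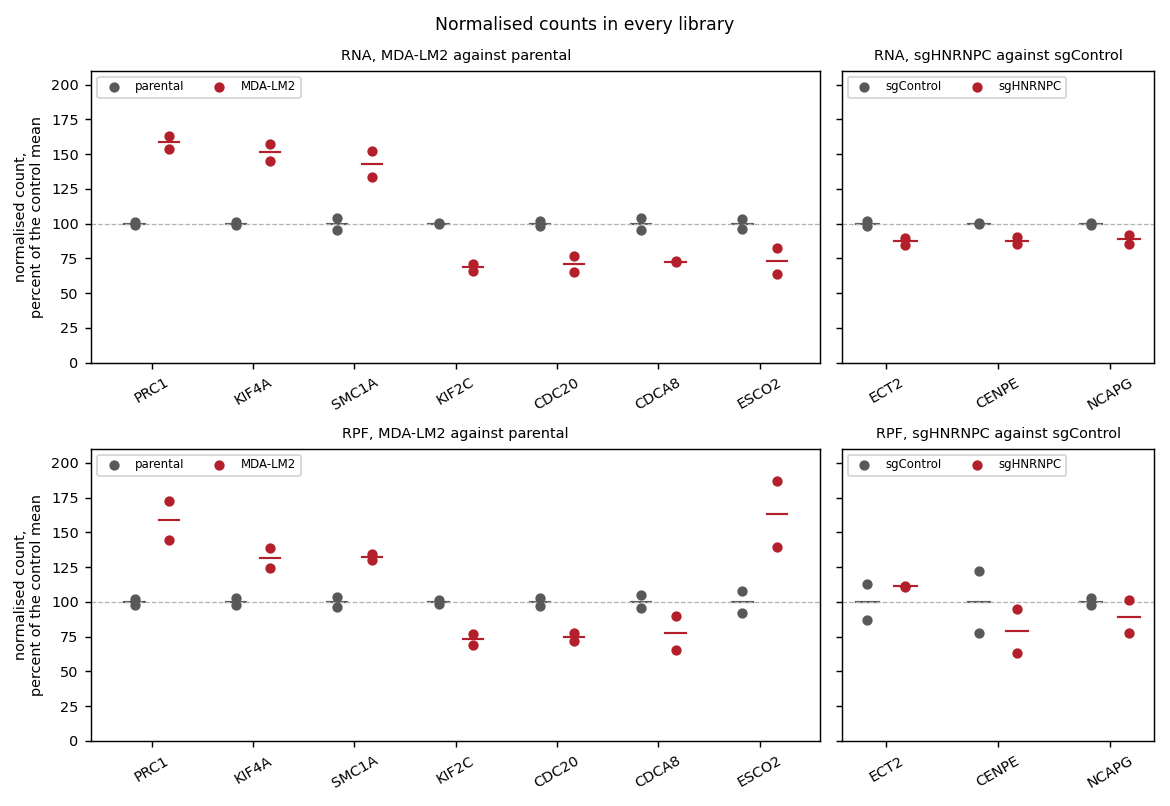
Normalised counts of 10 genes in every library as a percent of the mean of their control line, with RNA above and RPF below. Points are libraries, short lines the mean of 2, and axes start at 0. For PRC1, KIF4A, SMC1A, KIF2C, CDC20 and CDCA8 the RNA and RPF points lie on the same side of 100%, for ESCO2 on opposite sides, and the 3 knockdown genes sit close to 100% in RNA with wider scatter in RPF.

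Position was a feature the choice of genes had not used, and it was examined after the values were seen. For each of the 42 genes, the median RNA change of the listed genes that start within 5 Mb on hg38 was taken, leaving out the 42 themselves (14 to 164 neighbours per gene). In MDA-LM2 cells, each of the 6 genes with a changed RNA level lay among neighbours that had moved the same way. PRC1 (chromosome 15) had changed by 0.66 and its 35 neighbours by a median of 0.87, with 34 of them above zero, and 23 were called higher and 0 lower. KIF4A and SMC1A lie 16.9 Mb apart on the X chromosome. Neighbours of KIF4A had a median of 0.57 (15 of 28 called higher, 1 lower) and those of SMC1A 0.52 (26 of 51 called higher, 1 lower), next to changes of 0.59 and 0.51 in the genes themselves. X as a whole had a median near zero (0.0038 over 355 transcripts, 60 called higher and 44 lower). KIF2C and CDC20 start 1.38 Mb apart on chromosome 1 and share many neighbours, and CDCA8 starts 5.67 Mb from CDC20. Medians around the 3 genes were -0.41 for KIF2C (23 of 67 called lower, 0 higher), -0.40 for CDC20 (25 of 75 called lower, 0 higher) and -0.32 for CDCA8 (17 of 70 called lower, 1 higher), while chromosome 1 as a whole had a median of -0.10. Footprints showed neighbours of the same sign, with medians of 0.84 around PRC1, 0.52 around SMC1A, 0.42 around KIF4A, -0.25 around KIF2C, -0.24 around CDC20 and -0.23 around CDCA8.

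**Figure D3:**
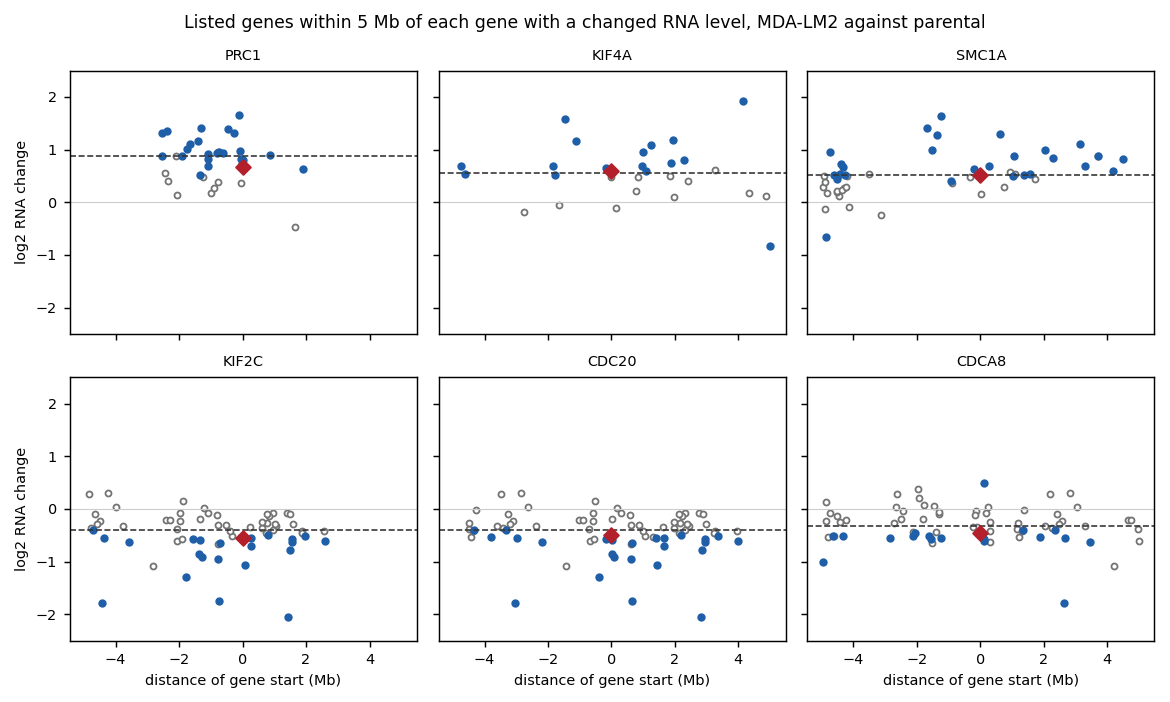
Log2 RNA change in MDA-LM2 against parental cells of every listed gene within 5 Mb of the 6 genes with a changed RNA level, by distance between gene starts. Circles are neighbours, filled where called; the diamond is the gene and the dashed line the median of its neighbours. Diamonds lie near the dashed line in all 6 panels, above zero for PRC1, KIF4A and SMC1A and below zero for KIF2C, CDC20 and CDCA8.

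Across all 42 genes, the RNA change in MDA-LM2 cells correlated with the median of the neighbours at r = 0.82 (Spearman rho 0.76), and at r = 0.59 over the 36 genes that did not pass. Taking 1 library of each line at a time gave r of 0.72 to 0.80 in the 4 pairings. Over all 10543 transcripts with at least 5 neighbours, r was 0.36, and 77.0% of the 1753 called transcripts had the sign of their neighbours. RPF changes of the 42 genes correlated with those of their neighbours at r = 0.58. In the knockdown the same measure gave r = -0.08 over the 42 genes and 0.03 over all transcripts, and the medians of neighbours stayed between -0.08 and 0.11. Points share libraries, and neighbouring genes share neighbours, so these values are descriptions. CDK1 and RAD21, which did not pass, also had neighbours with a high median (0.46 and 0.37, next to changes of 0.32 and 0.17). Genes that stood apart from their surroundings were ESCO2 (-0.46 against -0.0032), TTK (0.43 against 0.04) and SMC4 (0.47 against 0.13). What moved the neighbours was not tested, and gene copy number was not measured in these samples. The relation with neighbours was taken only on values without GC correction. The RNA change of the 42 genes in MDA-LM2 cells also correlated with GC content (r = -0.50), and whether neighbours shared GC content was not examined.

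**Figure D4:**
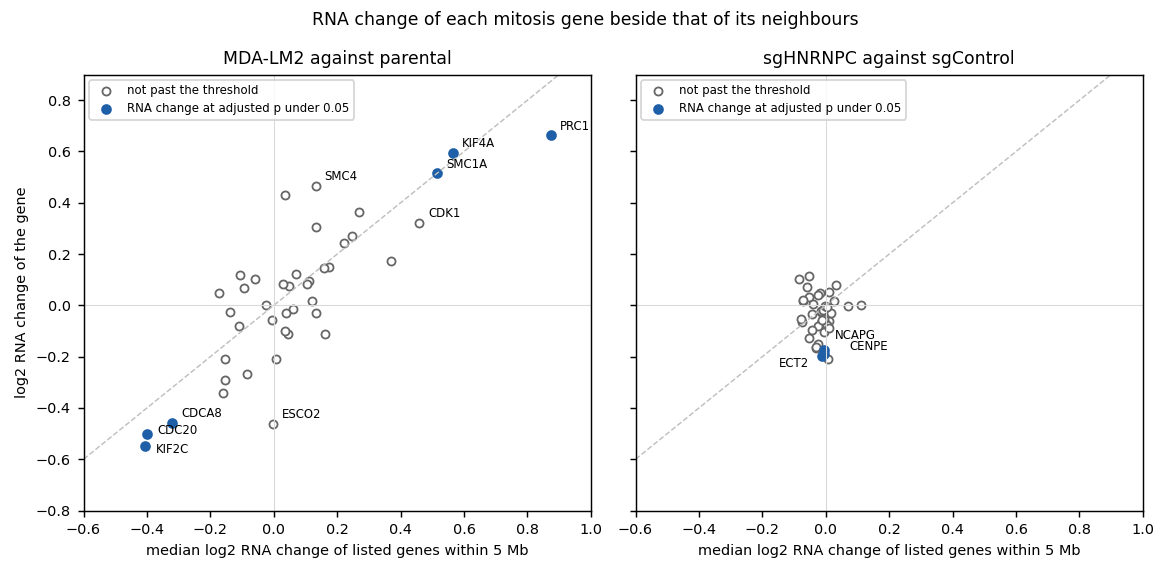
Log2 RNA change of each of the 42 genes against the median log2 RNA change of listed genes within 5 Mb, in both comparisons on the same axes. Filled points passed the threshold and the dashed line marks equal values. On the left the points spread along the line (r = 0.82), and on the right they gather near zero on the horizontal axis (r = -0.08).

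In the HNRNPC knockdown the RNA of 3 of the 42 genes changed, all down. These changes were smaller in size than those of the other genes that were called in MDA-LM2 cells. ECT2, the exchange factor that activates RhoA for cytokinesis, had 1282 and 1241 normalised RNA counts in sgControl and 1129 and 1070 in sgHNRNPC. CENPE, a kinetochore motor that carries chromosomes to the spindle equator, had 1345 and 1339 against 1210 and 1145. NCAPG, a subunit of condensin I, had 1063 and 1047 against 970 and 904. Both knockdown libraries were below both control libraries in each gene. The log2 changes were -0.20 for ECT2 (SE 0.06, limma adjusted p = 0.00871), -0.19 for CENPE (SE 0.05, adjusted p = 0.0112) and -0.17 for NCAPG (SE 0.06, adjusted p = 0.0418). The share of 7.14% compares with 10.0% of the 8980 listed transcripts (306 higher and 596 lower). Without sgControl replicate 1 or without sgHNRNPC replicate 2 none of the 42 passed (529 and 401 of all transcripts), without sgControl replicate 2 ECT2 alone did (693 of all), and quantile normalisation left only CENPE. Exons of NCAPG lie opposite those of LCORL over 35.6% of their bases.

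The other 39 genes had RNA changes from -0.21 to 0.11 in the knockdown, and 29 of the 42 genes were below zero, with a median of -0.03 against -0.02 for all listed transcripts. PRC1 came next, at 1105 and 1047 against 976 and 946 (log2 change -0.16, limma adjusted p = 0.0553), and it passed with the replicate number as a block. BUB1B and BUB1, kinase-domain proteins of the checkpoint, had changes of -0.21 (495 and 451 against 426 and 392, adjusted p = 0.0795) and -0.17 (741 and 699 against 684 and 601, adjusted p = 0.108). TPX2 and KIF20A, a kinesin of the midzone, had changes of -0.10 and -0.13 (adjusted p of 0.201 and 0.222), again without overlap of the libraries. BIRC5 had the highest change of the 42, 0.11 (adjusted p = 0.29). Libraries did not overlap for 21 genes, 16 lower and 5 higher, against 50.6% of all listed transcripts. The median size of the change regardless of sign was 0.06, against 0.12 for all. Of the mitotic entry genes, AURKA stood at 1003 and 1018 against 994 and 1028 and CDK1 at 731 and 760 against 722 and 760, whereas PLK1 had a change of -0.15 (adjusted p = 0.303) with overlapping libraries.

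No footprint or TE change of the 40 genes tested passed in the knockdown, where 0.0233% (1 of 4283) of transcripts passed in RPF and 0.0% in TE by limma; 332 transcripts had an unadjusted p under 0.05 in TE, 1 of them among the 40 genes. RPF values were low here, as for ESCO2 at 14.2 and 12.1 against 11.7 and 2.8. Its log2 changes of -1.02 in RPF and -1.09 in TE were the lowest of the 40 genes, and neither passed. They lay opposite to its MDA-LM2 changes, and the value of 2.8 came from sgHNRNPC replicate 2 alone. CCNB2, a second mitotic cyclin, had 34.1 and 35.8 against 35.7 and 13.5 (log2 change -0.64, limma adjusted p = 0.604), with the low value in sgHNRNPC replicate 2 alone, and it passed without sgHNRNPC replicate 1 (-1.31). AURKA, a kinase of the spindle poles, had 35.3 and 52.5 against 52.5 and 63.4 (change 0.41, adjusted p = 0.683), and CDK1 had 68.2 and 51.2 against 49.9 and 42.3 (change -0.36, adjusted p = 0.717). By adjusted p, the nearest to passing in TE was CCNB1 at 0.34 (limma adjusted p = 0.609). BUB3, a checkpoint protein, followed at -0.33 (adjusted p = 0.631) and ECT2 at 0.36 (adjusted p = 0.64). Logistic regression called none of the 40 against 0.257% of transcripts. RPF libraries did not overlap for 14 genes, 10 higher and 4 lower, against 37.9% of transcripts tested. Across the 40 genes, RNA and RPF changes in the knockdown correlated at r = -0.03, against 0.25 across all 4283 transcripts.

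Side by side, the comparisons shared no called gene in RNA. The 6 genes changed in MDA-LM2 cells had knockdown RNA changes of -0.16 (PRC1), -0.10 (KIF4A), -0.09 (SMC1A), 0.05 (KIF2C), -0.0016 (CDC20) and -0.07 (CDCA8). The 3 genes changed in the knockdown had MDA-LM2 changes of 0.02 (ECT2), 0.09 (CENPE) and -0.10 (NCAPG). RNA changes had the same sign in both comparisons for 15 of the 42 genes (r = -0.25). Shared calls, shared signs and r were not taken over all listed transcripts, so these values only describe the 42 genes. Over all listed transcripts, 16.6% were called in MDA-LM2 RNA and 10.0% in knockdown RNA. HNRNPC itself stood at 2768 and 2664 RNA counts in parental cells and at 2197 and 1930 in MDA-LM2 cells, a change of -0.40 that did not pass (limma adjusted p = 0.0547).

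HNRNPC binds U tracts, so the 3′ UTRs were searched for a C followed by 6 U. Such a tract was present in 16 of the 42 genes (38.1%), against 42.9% of the 10521 annotated transcripts listed with MDA-LM2 and 43.2% of those listed with the knockdown. The genes had shorter 3′ UTRs than other transcripts, with a median of 772 bases against 1167. Of the 9 genes with a changed RNA level in either comparison, NCAPG and PRC1 held a tract; the first one of each is shown, with the tract in capitals.
NCAPG, from base 962 of the 3′ UTR: taattgtgCTTTTTTtaggctta
PRC1, from base 397 of the 3′ UTR: attaacatCTTTTTTgtttaggc
In the knockdown the median TE change was 0.09 in the 14 tested genes with a tract and 0.06 in the 26 without, and the median RNA change was -0.03 in 16 genes and -0.05 in 26. In MDA-LM2 cells the median TE change was -0.03 with and 0.02 without a tract. These medians are descriptions and were not tested.

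Levels were compared per length, as RNA per kb of transcript and RPF per kb of coding sequence, and TE per length is their ratio. In parental cells the 42 genes stood above the typical transcript: the median was 211 in RNA against 109 for 8208 transcripts, 79.2 in RPF against 29.9, and 0.352 in TE against 0.258. In RPF per kb, 38 of 42 genes lay above the median of all. PTTG1 and CCNB1 led in RPF per kb at 323 and 321, and ESCO2, KIF4A and ESPL1 were lowest at 18.8, 20.8 and 24.3. The TE per length ran from 0.0157 for ESCO2 to 2.29 for MAD2L1, the checkpoint protein that captures CDC20. Both lysates gave the same ends of this order, at 0.015 and 0.0164 for ESCO2 and at 2.14 and 2.43 for MAD2L1. TTK came next at 1.27, above both lysates of CDK1, SPC25 and BUB3, whose values overlapped one another (means from 1.08 to 1.12). TE per length rests on the length of the listed transcript. For MAD2L1 this is 5227 bases with a 3′ UTR of 4495, and for BUB3 7703 bases with a 3′ UTR of 6632. Which 3′ ends the cells used was not examined here. ESCO2 had both the lowest RPF per kb and the third highest RNA per kb of the 42, at 1195 after CDC20 with 2039 and PTTG1 with 1488.

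sgControl cells, also MDA-MB-231 but in a separately normalised table, gave a similar order of footprints and a less similar order of RNA. Over the 40 genes tested in both tables, log2 RPF per kb of coding sequence correlated at r = 0.96 between parental and sgControl cells, while log2 RNA per kb correlated at r = 0.46. TE per length correlated at r = 0.14, with a Spearman rho of -0.13. The log2 difference in RNA level between sgControl and parental cells correlated with the GC content of the transcript at r = -0.78, and that in RPF at r = -0.25. CENPE (35.1% GC) had 46.9 RNA per kb in parental and 157 in sgControl cells, and CDC20 (56.9% GC) had 2039 and 334. ESCO2, at 37.4% GC, did not follow this order, with 1195 in parental and 135 in sgControl cells. In sgControl cells the median TE per length of the genes was 0.0784, below the 0.106 of 4190 transcripts, with 13 of 40 genes above it, whereas in parental cells 28 of 42 lay above the median of 8208. The 2 medians come from unlike sets, since the means of at least 10 in RPF and RNA were required within each table. MAD2L1, BUB3 and CDK1 were among the 5 genes of highest TE in both. Levels of separate tables are set side by side without a test, and GC content moved with the RNA difference.

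**Figure D5:**
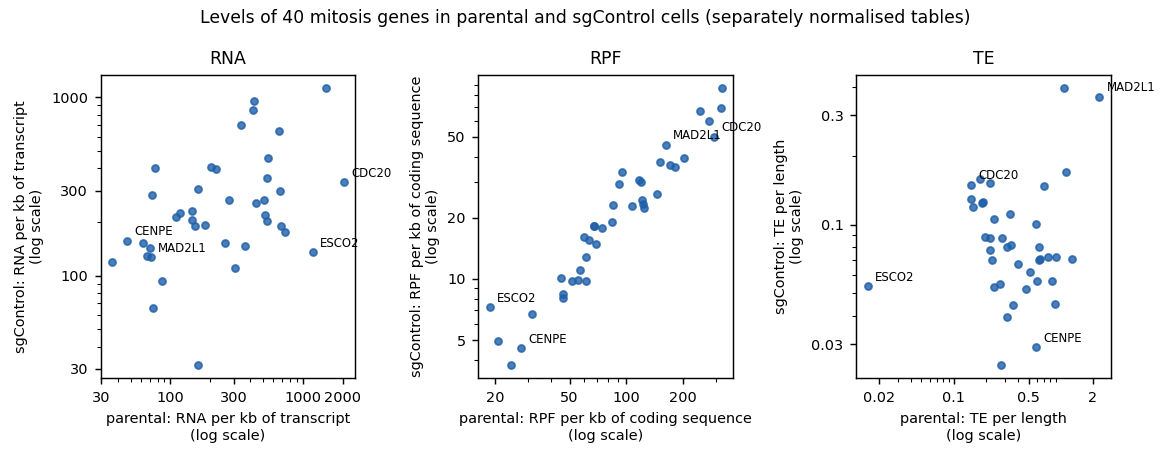
RNA per kb of transcript, RPF per kb of coding sequence and TE per length of 40 genes in parental (horizontal) and sgControl cells (vertical), all on log axes, each point the mean of 2 libraries per kind. Footprint levels fall along a line (r = 0.96), RNA levels scatter (r = 0.46) and TE shows little common order (r = 0.14).

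Other genes of the cell cycle were described from lists drawn up alongside the 42. Of 128 other mitosis genes listed, 9 passed in MDA-LM2 RNA (4 higher and 5 lower, 7.03%) and 11 in the knockdown (2 higher and 9 lower, 8.59%). The shares over all listed transcripts were 16.6% and 10.0%. MYBL2, the partner of MuvB at CHR promoters, had 1419 and 1608 RNA counts in parental cells against 687 and 642 in MDA-LM2 cells, a log2 change of -1.18 (limma adjusted p = 0.000538), and its footprints fell too, by 1.08 (adjusted p = 0.0075). NUMA1, which gathers microtubules at spindle poles, and ANAPC15, a subunit of the anaphase-promoting complex, fell by 0.56 and 0.61 on the log2 scale, and WAPL, which takes cohesin off chromosomes, rose by 0.65 (adjusted p of 0.0169, 0.0331 and 0.0237). In the knockdown CENPH, a kinetochore protein, rose from 78.4 and 80.7 to 170 and 153 (log2 change 1.01, limma adjusted p = 8.52e-08). ANLN, the actin scaffold of the cleavage furrow, fell by 0.26, TOP2B by 0.30 and DEPDC1B by 0.71. In size, these 4 knockdown changes exceeded the RNA changes of all 42 genes.

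DNA replication and nucleotide synthesis genes gave 2 changed RNAs of 43 in MDA-LM2 cells (1 higher and 1 lower, 4.65%). In the knockdown they gave 8 of 43 (1 higher and 7 lower, 18.6%). Among the cell cycle inhibitors and p53 targets, 3 of 16 listed fell in MDA-LM2 cells (18.8%). In the knockdown 2 of 14 rose and 1 fell (21.4%). Over all listed transcripts the shares called in RNA were 16.6% in MDA-LM2 cells and 10.0% in the knockdown. CDKN1A (p21), an inhibitor of CDKs singled out after its values were seen, went opposite ways. It fell in MDA-LM2 cells, from 795 and 774 RNA counts to 509 and 436 (log2 change -0.73, limma adjusted p = 0.00637), and rose in the knockdown, from 206 and 210 to 364 and 344 (log2 change 0.77, adjusted p = 3.89e-10). Libraries of the lines did not overlap in either comparison.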

How the data were processed

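RPF and RNA libraries of 4 lines were grouped by the line, kind of library and replicate number in the sample titles. The authors deposited a normalised signal per transcript: reads were trimmed with cutadapt 2.3, aligned with Bowtie2 2.3.5 to 1 mRNA per gene and scaled by size factors within each kind of library. RNA signal values are whole multiples of 1 step per library (tolerance 0.01), which gives the reads above; every listed transcript had at least 5. RPF values fall on no step, and no interval that needs their depth was computed. The submitters' notes name hg38; the annotation release is not given in the sources used here.

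Transcripts were matched to GENCODE version 44 (97.9% of each table). The log2 of the value plus 1 was tested with limma 3.58.1 in R 4.3.3 with a trend, two-sided, within each table. This test moderates the variance of each transcript with that of the other transcripts tested, along the trend with level. RNA was tested over all listed transcripts, and RPF and TE (interaction of line and library kind) over those with means of at least 10 in both. The threshold was an adjusted p of 0.05 (Benjamini-Hochberg over all transcripts tested). Fold changes on this scale understate changes of low genes. The tests were also run on simulated data, whose outcome is not given here. Those data held no GC trend and no deviation shared within a library. They therefore do not cover the GC differences between libraries described above. The rest was done in Python 3.11.15 (pandas 2.3.3, numpy 2.4.6; figures in matplotlib 3.10.9). The genes, the role groups and the other lists were chosen with earlier results of these data known. Values in every library are given for the 8 genes with the smallest adjusted p in RNA, 4 in RPF and 3 in TE per comparison, for genes needed to describe a role group, and for up to 4 other mitosis genes. Alternatives were another added value (0.5 or 5), filters, equal totals, quantile normalisation, the replicate block, TE within lysates, robust moderation, logistic regression and leaving out each replicate; GC correction (lowess) and other neighbour windows were added after seeing the data.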

Additional observations from a re-analysis of the deposited data

How the results depend on the processing

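Counts of called genes among the 42 depended on single libraries. In MDA-LM2 against parental cells, leaving out 1 library at a time gave 0 to 24 in RNA (6 with all libraries), 4 to 8 in RPF (7) and 0 to 1 in TE (0). In the knockdown it gave 0 to 4 in RNA (3), 0 to 1 in RPF (0) and 0 in TE. A line left with 1 library was assumed to vary like the other. Logistic regression gave 3 in MDA-LM2 TE, and quantile normalisation 1 in knockdown RNA. The median RNA change of the 42 genes in MDA-LM2 cells (0.06 as reported) was 0.23 under equal totals, 0.12 after quantile normalisation, -0.028 after GC correction and -0.04 to 0.11 with 1 library left out. In the knockdown (-0.033 as reported) it was -0.051, -0.0075, -0.038 and -0.064 to -0.024. All other alternatives kept the counts within 1.5 times.

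With the replicate block, the counts in MDA-LM2 cells were 9 in RNA, 9 in RPF and 0 in TE, and in the knockdown 4, 0 and 0; it added ESCO2, ESPL1 and SMC4 in MDA-LM2 RNA, CENPF and ESPL1 in MDA-LM2 RPF and PRC1 in knockdown RNA. No label ties the numbers to a shared batch, and with 2 lysates per line they were not taken as pairs. Deviations of same-numbered libraries correlated at 0.17 in RNA and 0.05 in RPF over all matched transcripts for MDA-LM2 with parental (0.21 and 0.22 over the 42 genes), and at -0.0033 and 0.02 in the knockdown (0.36 and 0.11). GC correction gave 7, 8 and 0 in MDA-LM2 cells and 3, 0 and 0 in the knockdown, and with the block 8, 9 and 0, and 4, 0 and 0. The relation with neighbours in MDA-LM2 RNA was 0.80 within 2 Mb and 0.80 within 10 Mb; in the knockdown it was -0.23 and 0.07. The planned count tests on recovered RNA reads were not run. The median RPF value per library was 9.4 to 9.5 normalised counts in the knockdown and its control and 28.1 to 28.4 in MDA-LM2 and parental cells.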
